A study of Homo sapiens with 6 samples.

Results

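The 9 mRNAs described here, MAP7D2, SLC44A5, GEM, APBB1IP, CCDC3, KIT, GRK5, ATP8A1 and FXYD3, are genes that the study paired with the long non-coding RNA lncBCAS1-4_1 because their signals rose and fell with it across the arrays. The pairing was positive for the first 8 and negative for FXYD3. Their probes were found by matching each probe sequence without mismatch to GENCODE release 44 transcripts of these genes, which gave 20 probes among 125601. Because the genes were chosen on the same 6 arrays, their order over the arrays is a description and carries no test.

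The 6 arrays are single-color Agilent arrays of SKOV-3, an established human ovarian cancer cell line. The sample titles and the growth protocol spell the line's number in other ways, and SKOV-3 follows the cell line field and the study. In 3 of them the cells are labelled as treated for 72 h with 100 nmol/L 1α,25(OH)2D3, the hormonally active form of vitamin D, and they are called VD 1, VD 2 and VD 3 here. In the other 3, called vehicle 1, vehicle 2 and vehicle 3, the cells are labelled as given ethanol at the same concentration for the same time. Nothing in the labels says whether the replicates were separate cultures, so their spread may be technical. VD 1 and VD 2 lay on slide 1, and VD 3 lay on slide 2 with the vehicle arrays.

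1α,25(OH)2D3 binds the vitamin D receptor, a nuclear receptor that pairs with the retinoid X receptor on DNA and changes the transcription of nearby genes. One of its best known targets in many tissues is CYP24A1, whose enzyme breaks the hormone down. lncBCAS1-4_1 is read from the same strand as CYP24A1. The array design names no genes, so its probe is inferred, as the only CYP24A1 probe that matches no protein-coding transcript. This probe falls in a transcript that the annotation assigns to CYP24A1 without a coding sequence. The 9 mRNAs share no family. They encode a receptor kinase and a kinase of receptors, 2 proteins that work with small GTPases, a microtubule-associated protein, 3 membrane transport proteins or their regulators, and a secreted coiled-coil protein.

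Markers of the line were present, though WT1, which had also been planned as a marker, is not reported here. All 6 arrays detected the epithelial genes KRT7, KRT8, KRT18, KRT19 and EPCAM, as well as ERBB2, which SKOV-3 is known to carry in extra copies, PAX8 and MUC16. They also detected 4 of 4 markers of other cells by the probe with the highest mean, with log2 signals of 6.49 to 7.14 for PTPRC, 5.84 to 6.25 for CD3E, 16.32 to 16.77 for CD79A and 5.44 to 7.50 for PECAM1. Only 2 of the 8 PTPRC probes were detected on any array. Their part in the results was not tested.

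The labels and the reference probes did not run together. The CYP24A1 probe A_23_P28815, in the 3′ UTR of exon 12, had a log2 signal of 2.23 on VD 1, 13.84 on VD 2, 3.30 on VD 3, 14.18 on vehicle 1, 4.75 on vehicle 2 and 14.34 on vehicle 3. The probe was high on VD 2, vehicle 1 and vehicle 3 and not well above background on the other 3 arrays, so each label holds both kinds of array. The coding CYP24A1 probe A_33_P3369401 had a log2 signal of 3.88 on VD 1, 14.64 on VD 2, 4.46 on VD 3, 15.16 on vehicle 1, 8.24 on vehicle 2 and 15.25 on vehicle 3. It was well above background on vehicle 2 as well, where it lay between the low and the high arrays. The lncBCAS1-4_1 probe had a log2 signal of 2.14 on VD 1, 9.99 on VD 2, 2.15 on VD 3, 10.32 on vehicle 1, 2.21 on vehicle 2 and 10.23 on vehicle 3. By label its mean was 4.76 ± 4.53 (SD, n = 3) with 1α,25(OH)2D3 and 7.58 ± 4.66 (SD, n = 3) with vehicle, a log2 fold change of -2.82. This direction is opposite to that given by the study. Since the hormone is known to raise CYP24A1, VD 1, VD 3, vehicle 1 and vehicle 3 went against their labels. Whether the labels give the treatment that these cells received is not settled here, and if they do not, every mean, fold change and p given by label changes its meaning. The arrays are named by their labels, every fold change is a difference between labels and not a shown effect of the hormone, and VD 2, vehicle 1 and vehicle 3 are called the CYP24A1-high arrays. In bulk RNA, fewer cells that express a gene and less RNA per cell cannot be told apart.

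The probe sequences show which part of each transcript was read. The lncBCAS1-4_1 probe lies on hg38 at chr20:54162581-54162640, minus strand, and the coding CYP24A1 probe A_33_P3369401, in exon 10, at chr20:54157390-54157449. They are shown because all 9 mRNAs were chosen by their likeness to the first. The SLC44A5 probe crosses from exon 22 to exon 23 between chr1:75211516-75213727, minus strand, and its 37 bases from exon 23 are in capitals. The coding MAP7D2 probe A_24_P7652 is at chrX:20052899-20052958, minus strand, exon 5. KIT is shown with coding probes in exon 5, chr4:54703799-54703858, and exon 11, chr4:54727460-54727519, plus strand. APBB1IP is shown with the coding probe in exon 5, chr10:26500979-26501038, and with a probe to a transcript without coding sequence, chr10:26562279-26562338, plus strand, since these differed on the arrays.
lncBCAS1-4_1 OEV5_63001: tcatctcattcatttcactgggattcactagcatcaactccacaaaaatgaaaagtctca
CYP24A1 A_33_P3369401: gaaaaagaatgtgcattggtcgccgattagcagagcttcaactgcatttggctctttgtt
SLC44A5 A_23_P342641: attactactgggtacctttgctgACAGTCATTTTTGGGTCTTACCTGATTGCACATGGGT
MAP7D2 A_24_P7652: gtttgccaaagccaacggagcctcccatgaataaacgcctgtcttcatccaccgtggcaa
KIT A_33_P3303245: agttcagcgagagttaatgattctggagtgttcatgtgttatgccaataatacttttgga
KIT A_33_P3407034: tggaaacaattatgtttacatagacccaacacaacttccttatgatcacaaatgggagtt
APBB1IP A_24_P232365: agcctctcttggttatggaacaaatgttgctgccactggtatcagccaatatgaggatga
APBB1IP OEV5_37822: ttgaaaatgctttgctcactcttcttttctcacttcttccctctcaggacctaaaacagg

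**Figure D1:**
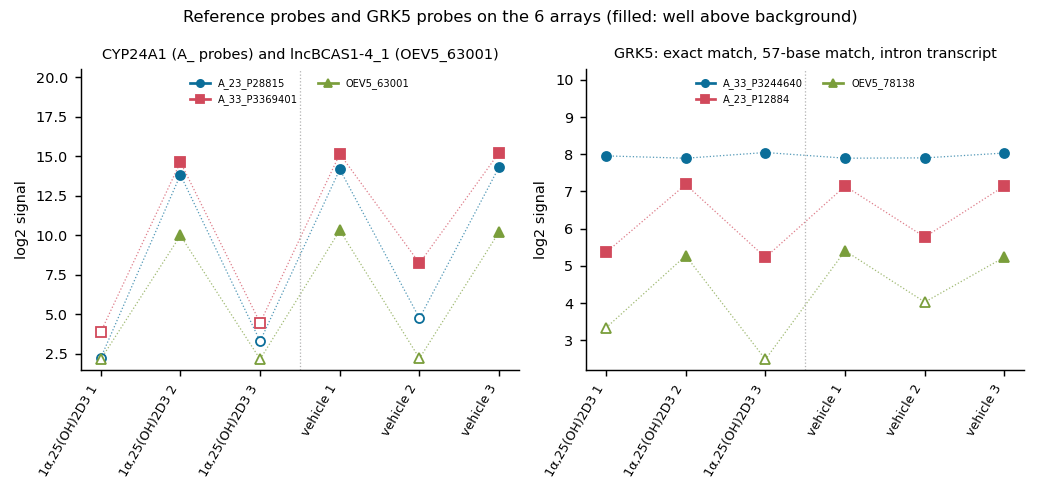
The log2 signal (y axis) of the CYP24A1 and lncBCAS1-4_1 probes (left) and of 3 probes in GRK5 (right) on each of the 6 arrays (x axis), filled where the probe was well above background; dotted lines join the values of 1 probe and imply no order. CYP24A1 and lncBCAS1-4_1 were high on VD 2, vehicle 1 and vehicle 3, whereas the exactly matched GRK5 probe A_33_P3244640 stayed between 7.89 and 8.05.

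Signals of 10 of the 20 member probes were well above background on all 6 arrays, those of 2 on none and those of 8 on some, 4 of these on the CYP24A1-high arrays and no others. On 12 probes, from 7 of the 9 genes, the 3 CYP24A1-high arrays all lay above the other 3, an order that 3.42% of all 125601 probes showed. On 2 probes, both of FXYD3, the 3 lay below the other 3, an order of 3.01% of all probes. The other 6 probes overlapped. The gap from the lowest CYP24A1-high array to the highest of the others exceeded 1 on the log2 scale for 5 member probes, against 0.0782% of the 67740 probes detected (well above background) on at least 3 arrays. An undetected value is only a bound. With each set to the lowest detected signal of its array (3.76 on VD 1, 4.31 on VD 3 and 4.54 on vehicle 2), the gap exceeded 1 for 2 member probes and for 0.0502% of the 67740. Under that setting 11 member probes kept the order, beside 1.87% of all probes. Since the genes were chosen on these arrays, nothing is read from these shares. Both slides hold arrays of either kind.

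KIT encodes the receptor tyrosine kinase for stem cell factor. Its exon 5 probe had a log2 signal of 6.87 on VD 1, 8.21 on VD 2, 5.84 on VD 3, 7.89 on vehicle 1, 5.98 on vehicle 2 and 7.75 on vehicle 3. The lowest CYP24A1-high array was 0.87 above the highest of the other 3, which was VD 1, and the labelled groups overlapped. The 3′ UTR probe A_23_P110253 ran the same way, with 6.68, 8.05 and 5.92 on VD 1 to VD 3 and 7.86, 5.73 and 7.64 on vehicle 1 to vehicle 3. On the exon 11 probe VD 2 had the highest value, 6.04, followed by vehicle 1 at 5.58 and vehicle 3 at 5.53, and VD 3 and vehicle 2 were not well above background. All 3 KIT probes therefore gave the same 3 arrays as the highest, and on all 3 VD 2 came first.

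GRK5 encodes a kinase that phosphorylates activated G protein-coupled receptors and so switches their signal off. Its only exactly matched probe, A_33_P3244640 in the 3′ UTR of exon 16 (chr10:119457504-119457563, plus strand), had log2 signals of 7.96, 7.89 and 8.05 on VD 1 to VD 3 and of 7.90, 7.90 and 8.03 on vehicle 1 to vehicle 3. This probe was nearly level and put neither the labels nor the CYP24A1-high arrays apart. A second probe, A_23_P12884, matched GRK5 over 57 of its 60 bases (bases 4 to 60, chr10:119455455-119455511). It was looked for after the level values of the first were seen, and the rule for members leaves it out. Its first 20 bases are shown with the 3 that do not match in capitals.
GRK5 A_23_P12884, bases 1 to 20: ATGaagtgagactttgaggg
Its log2 signal was 5.36 on VD 1, 7.19 on VD 2, 5.22 on VD 3, 7.14 on vehicle 1, 5.77 on vehicle 2 and 7.15 on vehicle 3. It separated the CYP24A1-high arrays from the others by 1.37, with a range of 0.04 among the 3 high arrays. A probe of GRK5-IT1, a transcript from an intron of GRK5, ran from 2.48 on VD 3 to 5.40 on vehicle 1 and was well above background on the CYP24A1-high arrays only.

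GEM encodes a small GTP-binding protein that lowers the activity of voltage-gated calcium channels. Its 1 probe had a log2 signal of 6.98 on VD 1, 9.90 on VD 2, 6.57 on VD 3, 10.01 on vehicle 1, 7.60 on vehicle 2 and 9.90 on vehicle 3. The 3 CYP24A1-high arrays lay within 0.11 of each other and at least 2.29 above the rest, the widest gap among the 10 member probes that were measured well above background on all 6 arrays.

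APBB1IP encodes an adaptor that binds the small GTPase RAP1 and brings talin to integrins. Its 3′ UTR probe A_23_P401700, printed in 10 spots, had a log2 signal of 2.51 on VD 1, 4.23 on VD 2, 2.65 on VD 3, 5.28 on vehicle 1, 2.26 on vehicle 2 and 4.64 on vehicle 3. Only the 3 CYP24A1-high arrays were well above background. Among its spots the SD of the log2 scanner signal within an array was 0.13 to 0.48, a measure of technical spread only. With undetected values at the lowest detected signal the arrays overlapped, so no gap is read from this probe. On vehicle 1 all 9 spots used were well above background, on vehicle 3 there were 7 of 9, on VD 2 there were 6 of 10, and on the other arrays 0. The coding probe in exon 5 ran from 3.32 on vehicle 2 to 5.83 on vehicle 1 with a narrower gap of 0.35. The probe OEV5_37822, which reads the transcript without coding sequence, lay between 7.50 and 7.79 on all 6 arrays and did not follow the other probes of the gene.

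MAP7D2 encodes a microtubule-associated protein of the family that recruits kinesin-1. The 3′ UTR probe A_24_P367645 in exon 17 had a log2 signal of 2.84 on VD 1, 5.82 on VD 2, 2.51 on VD 3, 7.23 on vehicle 1, 2.93 on vehicle 2 and 6.36 on vehicle 3. It was not well above background on VD 1, VD 3 and vehicle 2, where its values are only bounds, and the CYP24A1-high arrays lay at least 1.29 above the lowest detected signal of those arrays. The exon 5 probe had a log2 signal of 6.87 on VD 1, 8.28 on VD 2, 7.30 on VD 3, 9.45 on vehicle 1, 7.02 on vehicle 2 and 8.45 on vehicle 3. It was well above background on every array and gave a gap of 0.97, with vehicle 1 highest on both probes.

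SLC44A5 belongs to the choline transporter-like proteins. Its exon-junction probe had a log2 signal of 2.16 on VD 1, 5.33 on VD 2, 2.60 on VD 3, 6.10 on vehicle 1, 2.13 on vehicle 2 and 5.34 on vehicle 3. The mRNA was well above background on the 3 CYP24A1-high arrays and on none of the others, and lay at least 0.79 above the lowest detected signal of those. CCDC3 encodes a secreted coiled-coil protein. Its probe had a log2 signal of 2.66 on VD 1, 4.54 on VD 2, 3.56 on VD 3, 4.67 on vehicle 1, 2.07 on vehicle 2 and 4.55 on vehicle 3. The detected arrays were the same 3, but the lowest of them was no more than 0.01 above the lowest detected signal of vehicle 2, so no size can be given.

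ATP8A1 encodes a flippase that moves aminophospholipids to the inner side of membranes. Its 3′ UTR probe A_33_P3330952 had a log2 signal of 6.14 on VD 1, 7.26 on VD 2, 5.49 on VD 3, 7.29 on vehicle 1, 5.16 on vehicle 2 and 7.13 on vehicle 3. The gap was 0.99 and VD 1 came next after the CYP24A1-high arrays, as it did on the exon 5 and 3′ UTR probes of KIT. The other 2 probes of ATP8A1 read transcripts with a retained intron. On OEV5_39495 vehicle 3 (5.81) exceeded VD 1 (5.80) by only 0.01, and on OEV5_41866 vehicle 3 (4.61) lay below VD 1 (4.85).

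FXYD3 encodes a small membrane protein that modulates the sodium pump, and it is the member with the negative pairing. Its 3′ UTR probe A_33_P3228450 had a log2 signal of 5.70 on VD 1, 4.61 on VD 2, 5.07 on VD 3, 4.18 on vehicle 1, 4.91 on vehicle 2 and 3.67 on vehicle 3. The CYP24A1-high arrays were the lowest, by 0.30, and vehicle 1 and vehicle 3 were not well above background. The probe A_33_P3228460 showed the same order, from 6.67 on vehicle 3 to 7.75 on vehicle 2, with a gap of 0.42, but it also matches a second annotated gene at this place. The third measured probe, A_33_P3228466, did not follow, with vehicle 1 at 8.23 and vehicle 3 at 8.30 among its higher arrays and VD 2 lowest at 7.46. The remaining 2 probes were not well above background on any array.

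**Figure D2:**
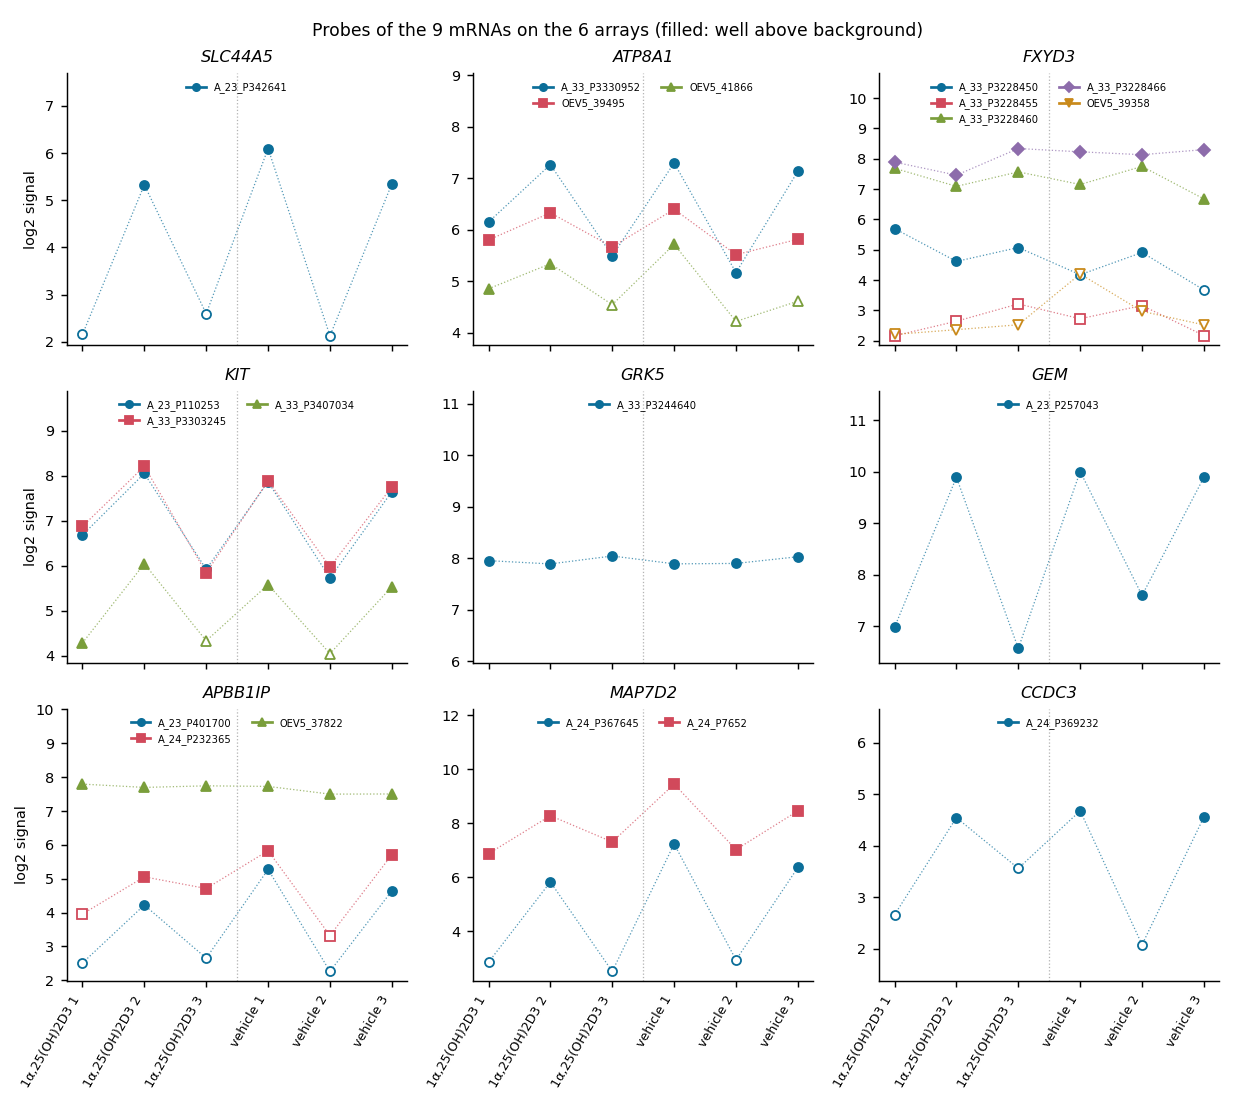
The log2 signal (y axis, a separate range for each gene) of all 20 probes of the 9 mRNAs on each of the 6 arrays (x axis, the dotted vertical line parts the labels), filled where well above background; dotted lines join the values of 1 probe and imply no order. VD 2, vehicle 1 and vehicle 3 were the 3 highest arrays for 12 probes and the 3 lowest for 2 probes of FXYD3, while GRK5 and OEV5_37822 of APBB1IP stayed level.

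Between the labels no member was called. Of the 20 probes, 11 from 7 genes passed the background filter and were tested with limma, and the 9 not tested were those of SLC44A5 and CCDC3, 2 of APBB1IP, 2 of FXYD3 and 1 each of MAP7D2, KIT and ATP8A1. The call asked for more than a 2-fold difference together with an unadjusted p under 0.05. In limma 0 of the 11 passed it, against 0.745% of the 63337 probes tested (0.486% higher and 0.259% lower with 1α,25(OH)2D3), and 1 had an unadjusted p under 0.05 alone. The methods' t-test also called 0. On no member probe were the labelled groups apart, against 12.2% of all tested probes. The members were chosen to follow a probe that is high under both labels, so nothing is read from this either. The Benjamini-Hochberg adjusted p in limma was 0.701 to 0.985 for the members, and over all probes 0 passed the adjusted threshold, with 4286 at an unadjusted p under 0.05. The log2 fold change was negative for 14 and positive for 6 of the 20 probes with a median of -0.21, beside -0.0013 over all probes. For the 11 tested probes the median was -0.19, with 6 negative and 5 positive.

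GEM had the widest label difference of the tested probes, with a mean of 7.82 ± 1.81 (SD, n = 3) for 1α,25(OH)2D3 and 9.17 ± 1.36 (SD, n = 3) for vehicle, a log2 fold change of -1.35 (SE 0.96, adjusted p = 0.726 in limma). The MAP7D2 exon 5 probe had 7.48 ± 0.72 against 8.31 ± 1.22, a log2 fold change of -0.82 (SE 0.61, adjusted p = 0.730 in limma). The FXYD3 probe A_33_P3228450 differed the other way, with 5.13 ± 0.54 against 4.25 ± 0.62, a log2 fold change of 0.87 (SE 0.37, adjusted p = 0.701 in limma). It is the member probe with an unadjusted p under 0.05 in limma, and it passed the background filter only through the 1α,25(OH)2D3 label. On vehicle 1 and vehicle 3 it was not well above background, so its vehicle mean and SD rest partly on bounds. For KIT the exon 5 probe gave -0.23 (SE 0.68), for ATP8A1 the 3′ UTR probe gave -0.23 (SE 0.64), and for GRK5 the exactly matched probe gave 0.02 (SE 0.14). With the slide as a block these became -2.59 for GEM (SE 1.36), -1.36 for KIT (SE 0.87) and -1.04 for ATP8A1 (SE 0.91), each with an adjusted p of 0.966 in limma. Only slide 2 holds both labels, and its 1α,25(OH)2D3 label has a single array, VD 3. The small SE of GRK5 goes with its level signal, whereas the others have their 3 arrays of 1 label split between high and low.

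The count of 0 rested on the arrays kept. Without vehicle 2, 6 member probes passed the unadjusted threshold. They were both probes of MAP7D2 (log2 fold changes of -3.07 and -1.47), the SLC44A5 probe (-2.36), the 3′ UTR and exon 5 probes of APBB1IP (-1.83 and -1.19) and A_33_P3228450 of FXYD3 (1.20), all with an adjusted p of 0.908 in limma. Without VD 2, 2 passed, GEM at -2.39 and the same FXYD3 probe at 1.13, with an adjusted p of 0.865 in limma. Over all probes the same threshold gave 552 without vehicle 2 and 879 without VD 2. The background filter was applied anew to the arrays kept, so the probes tested also changed. These counts are not shares and cannot be compared as such. Vehicle 2 and VD 2 are the arrays of their labels whose CYP24A1 signal differs from that of the other 2, so leaving either out brings the labels closer to the order by which the members were chosen. Several of the probes also passed the background filter only in the group where they are high, and nothing is read from these counts beyond the dependence on single arrays.

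**Figure D3:**
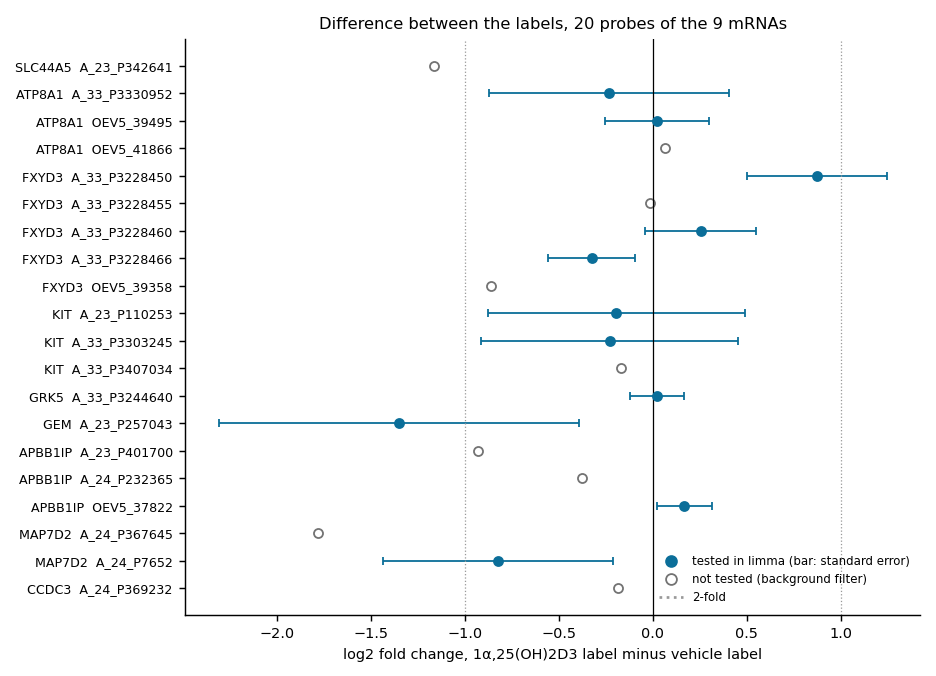
The log2 fold change between the labels (x axis, 1α,25(OH)2D3 minus vehicle) for each of the 20 member probes (y axis); filled points were tested in limma and bars are standard errors, open points did not pass the background filter. GEM at -1.35 lay furthest from 0 among the tested probes, and the tested values spanned -1.35 to 0.87.

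The relatives and working partners of the members were looked at as a list of 55 genes with 143 probes, using for each gene the probe with the highest mean. Of these, 42 were tested in limma and 0 passed that call in either direction, beside 0.745% of all probes tested. An unadjusted p under 0.05 alone was found in limma for 5 of the 42, beside 4286 of the 63337 probes tested. The methods' t-test called 0. Their median log2 fold change between labels was 0.01. At least 3 arrays detected the probe of 44 genes, and for 3 of these the CYP24A1-high arrays all lay above the others, which is 6.82% beside 3.62% of all such probes. For 0 they all lay below, beside 2.81%.

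Those 3 were SLC44A2, CSF1R and ATP8B3. SLC44A2, a choline transporter-like protein as SLC44A5 is, had a log2 signal of 6.99 on VD 1, 9.83 on VD 2, 6.82 on VD 3, 8.78 on vehicle 1, 6.54 on vehicle 2 and 7.27 on vehicle 3. VD 2 and vehicle 1 stood out and vehicle 3 was only 0.29 above VD 1. CSF1R, a receptor kinase related to KIT, stayed between 5.60 and 6.21 with a gap of 0.13. ATP8B3, a flippase subunit related to ATP8A1, ran from 6.63 to 7.84 with a gap of 0.14.

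Of the other relatives, the one with the highest mean is given for 7 members. MAP7D1 lay between 11.07 and 11.52, SLC44A1 between 11.46 and 12.02, and RRAD, the relative of GEM that was measured, between 9.60 and 10.76 with vehicle 2 highest. RAPH1, which like APBB1IP binds RAS-type GTPases and actin regulators, lay between 15.01 and 15.41. PDGFRB, a receptor kinase of the same class as KIT, lay between 7.61 and 8.10, and ARRB2, which binds receptors phosphorylated by kinases such as GRK5, between 10.16 and 10.42. ATP10B, of the same class of pumps as ATP8A1, lay between 12.54 and 13.03. Label differences of these 7 genes ran from -0.29 for RRAD to 0.35 for ATP10B, with adjusted p-values of 0.701 or more in limma.

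**Figure D4:**
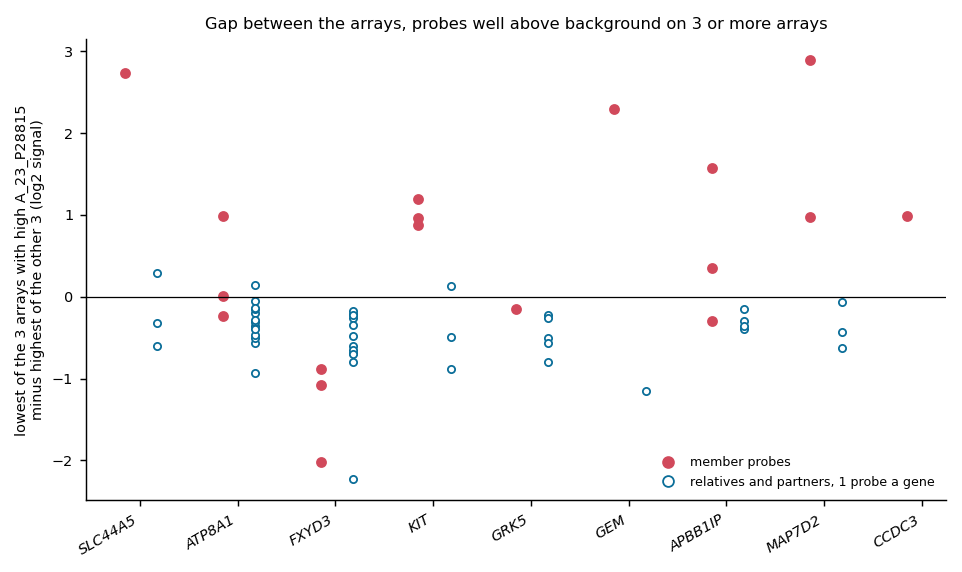
For each member (x axis), the lowest log2 signal of the 3 CYP24A1-high arrays minus the highest of the other 3 (y axis), for member probes (filled) and for 1 probe of each relative or partner (open), all well above background on at least 3 arrays, with undetected values drawn as measured, though they are only bounds; CCDC3 has no listed relatives. Values above 0 mean that the 3 arrays lay above the rest, as for 12 member probes and 3 relatives, and values below 0 mean an overlap or, for 2 FXYD3 probes, the opposite order.

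Genes whose profile over the 6 arrays was near to that of the members were found from the mean of the 8 positively paired members. Each was represented by its probe with the highest mean and centred on its own mean. For APBB1IP and GRK5 these are OEV5_37822 and A_33_P3244640, which stayed level. Among single-gene probes of other protein-coding genes, the root mean square difference on the log2 scale was 0.22 for SPAAR, 0.24 for LXN, which encodes an inhibitor of carboxypeptidases, 0.25 for ETS2, a transcription factor, and 0.30 for CATSPER3. SPAAR had a log2 signal of 5.95 on VD 1, 7.34 on VD 2, 5.61 on VD 3, 7.15 on vehicle 1, 5.85 on vehicle 2 and 7.01 on vehicle 3. Their order over the arrays follows from this choice, and the study's own pair lists for lncBCAS1-4_1 hold LXN, ETS2 and CATSPER3. When each member was represented by its most variable probe, SPAAR (0.45) was again near, together with TRPV6 (0.21), HS3ST1 (0.41) and LAMA4 (0.43), the last 3 of which are also in those lists. TRPV6, an epithelial calcium channel and a known target of the vitamin D receptor in the intestine, ran from 3.47 on vehicle 2 to 6.60 on vehicle 1. On VD 3 and vehicle 2, TRPV6, CATSPER3 and LAMA4 lay under the lowest detected signal of the array (4.31 and 4.54). Those values are only bounds, and the root mean square differences of these genes rest partly on them.

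**Figure D5:**
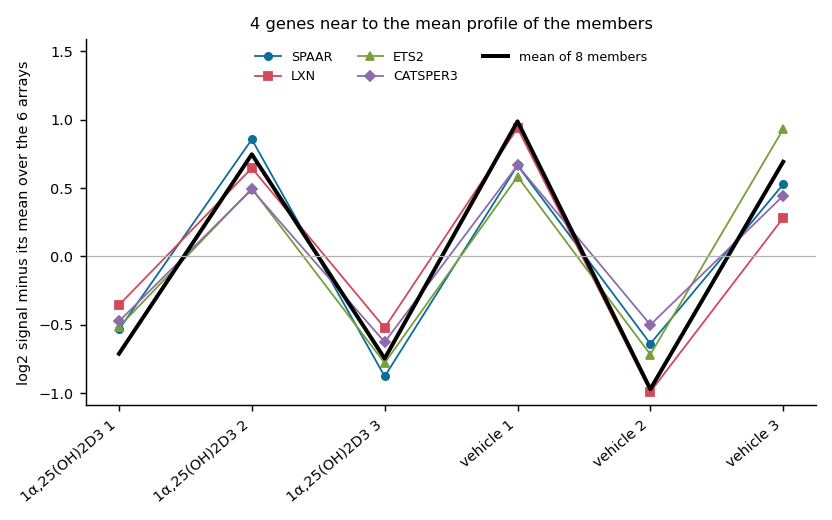
The log2 signal minus its mean over the 6 arrays (y axis) on each array (x axis) for 4 genes near to the members and for the mean of 8 members (thick line); lines imply no order. All 5 curves are above 0 on VD 2, vehicle 1 and vehicle 3 and below 0 on the other arrays, though the CATSPER3 values on VD 3 and vehicle 2 are only bounds.

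Promoter sequences of 300 bases around the start, from RefSeq on GRCh38.p14, were given for 8 of the 9 members. At least 1 receptor half-site (AGGTCA or AGTTCA, or either with G as its first letter, on either strand) was present in the windows of SLC44A5, APBB1IP and FXYD3, 3 of 8 members, beside 38.6% of 35116 promoters. The DR3 arrangement, a direct repeat of such half-sites 3 bases apart, was found in 0 of the 8 and in 26 of all promoters (0.0740%). These are matches of letters in a short window and say nothing of binding.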

How the data were processed

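RNA of SKOV-3 cells was hybridised to 6 single-color Agilent arrays, 3 for each label. The authors scanned them with Agilent Feature Extraction 10.7.1.1 and deposited the spot intensity on a linear scale, with flags for spots well above background. The authors also deposited log2 values, 1 per probe and array, whose sorted columns differ by at most 0.000913, so they had been normalized by quantiles between arrays. These log2 values were used throughout, with detection taken from the scanner flag. The share of probes flagged as well above background was 49.1% to 57.5% per array, 1837 to 2471 of 175812 spots were marked as outliers and 0 were saturated. The number of arrays limits the precision. The design names no genes in its files, so probes were matched exactly, in sense, to GENCODE release 44 and hg38, and 90604 matched a transcript.

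Probes with that flag on every array of 1 label or both were fitted in limma 3.58.1 (R 4.3.3) without covariates, with Benjamini-Hochberg adjustment of p over all 63337. One call needed more than a 2-fold difference and an unadjusted p under 0.05, the other an absolute log2 difference above 2 and an adjusted p under 0.05. The fit was also run on simulated data without a slide effect or a split of arrays within a label. That run checks the computation only and not how the fit behaves on these arrays. The order of the arrays by A_23_P28815 is described without means or tests, since it is a measured value. Members and lists were chosen with earlier results of these data known. Named are all members with all probes, the reference probes, relatives that pass the threshold or show that order, the relative of each member with the highest mean, and the 5 genes of nearest profile. Results for 2 genes that this rule names are not reported here. Alternatives were the scanner intensity scaled to the 75th percentile, normexp with an offset of 50 and quantile normalization, no background filter, detection required on all 6 arrays, a block for the slide or for the replicate number, the most variable probe, omission of 1 array at a time and the methods' t-test. Correlation coefficients of the study, RT-PCR and cell assays were not analysed here.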

Additional observations from a re-analysis of the deposited data

How the results depend on the processing

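No member probe passed the unadjusted threshold under any of the other scalings, filters or blocks, or with the methods' t-test, and leaving out 1 array gave 0 to 6 member probes (6 without vehicle 2, 2 without VD 2). Over all probes that threshold gave 472, against 34 with normexp, 1612 without the filter and 157 with the filter on all 6 arrays. It gave 808 with the slide as a block and 139 with the methods' t-test. With 1 array left out it gave 329 to 1525 (552 without vehicle 2, 879 without VD 2, 1525 without VD 3, 1223 without vehicle 1, 719 without vehicle 3). Each omission also changed which probes passed the filter and were tested. The adjusted threshold gave 0, and 0 to 4 with 1 array left out (4 without vehicle 1, none of them a member's). Of the calls 65.3% were higher with 1α,25(OH)2D3, but 44.1% with normexp, 49.8% with the slide as a block, 54.1% without the filter and 51.5% without vehicle 2. Among relatives 1 passed without the filter (PDGFRA, -1.08) and 1 with the slide as a block (FXYD1, -1.14). The PDGFRA probe was well above background on 0 arrays, so its values are only bounds. The FXYD1 probe also matches a second annotated gene, and in that fit only VD 3 shares a slide with vehicle arrays.

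No clear pairing by replicate number was seen. The deviations of same-numbered arrays correlated at 0.12, 0.09 and -0.03, and not every array correlated best with its own number. With 3 arrays per label these values cannot exclude a pairing. With the replicate number as a block 582 probes passed the unadjusted threshold and 0 of them were members.

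Of 93 recomputed log2 fold changes of the members 83 kept their sign and stayed short of the adjusted threshold, and 10 changed sign. With 1 array left out KIT ran from -0.85 to 0.34 (0.34, 0.11 and 0.04 without VD 3, vehicle 1 and vehicle 3), ATP8A1 from -0.91 to 0.17 (0.17, 0.15 and 0.07 without the same arrays), and GRK5 from -0.018 to 0.067 (-0.018 without VD 3, -0.002 without vehicle 1). MAP7D2 ran from -1.47 to -0.25 (the latter without vehicle 1) and GEM from -2.39 to -0.73. The slide as a block moved GEM from -1.35 to -2.59, KIT from -0.23 to -1.36 and ATP8A1 from -0.23 to -1.04. GRK5 was -0.032 with normexp, and FXYD3, by its brightest probe A_33_P3228466, was 0.12 with the slide as a block. The cause was not tested. With scanner signals scaled to the 75th percentile, 11 instead of 12 member probes had the CYP24A1-high arrays highest, OEV5_39495 of ATP8A1 being the one lost at -0.02. With undetected values at the lowest detected signal of their array, an alternative chosen after seeing the data, there were also 11, without the 3′ UTR probe of APBB1IP (-0.31). That order was shown by 1.87% of all probes under this alternative. Probes near background limit what SLC44A5, CCDC3 and the 3′ UTR probes of MAP7D2 and APBB1IP can show on 3 of the arrays.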
